A study of Mus musculus with 6 samples.

Results

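The regions described here are the 569 autosomal regions with the most ATAC-seq counts among the 28472 autosomal regions that the deposited table of open chromatin assigned to no promoter, out of 43523 distinct regions in all. ATAC-seq uses the Tn5 transposase to cut accessible DNA and attach sequencing adapters, and a region that is cut more often yields a larger count. The cells were nephron progenitors of CD1 mice, an outbred stock, taken in mid-gestation (E14.5) or on the day of birth (P0), with no other treatment and no genetic change named in the labels. Each of the 6 libraries, 3 at each stage, came from the pooled kidneys of one litter and from 50000 cells selected on beads with antibodies to the integrin Itga8, so one library stands for several animals. Members were chosen by their level: the 10 regions with the largest summed counts were left out, each count was divided by the library's remaining total and given as CPM, the count per 1000000 counts, and the top 2% by the mean of the 6 CPM values were kept. The levels are therefore a description of what was chosen, and only the difference between the stages was tested. Because both stages enter the mean, 475 of the 569 members were also in the top 2% by the E14.5 libraries alone, and 493 by the P0 libraries alone.

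Nephron progenitors are mesenchymal cells that cap the tips of the branching ureteric bud and give rise to the epithelium of the nephron. They renew themselves while part of them differentiates, and in the mouse the pool is used up shortly after birth. Open chromatin away from gene starts is where enhancers are found, which bind transcription factors and act on genes that can lie far along the chromosome.

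The label of strong distal elements of nephron progenitors was only partly borne out by where the members lie. Of the 569 members, 89 (15.6%) held the start of a RefSeq gene although the table's promoter column was empty, against 7.38% of the 569 regions next in rank and 2.23% of all autosomal distal regions. The protein-coding gene nearest to 166 members (29.2%) had a predicted-gene name (Gm, Rik or LOC), against 8.44% of the next 569. Of 22 nephron progenitor genes, 2 had a member within 100 kb (9.09%), against 4.15% of autosomal protein-coding genes. The members are therefore called here by their rule, the distal regions with the most counts.

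Some of the gene starts inside members lie in sequence that the genome holds more than once. In 18 of the 89 members with a start (20.2%), over 50% of the 31-base stretches of a RefSeq promoter there (250 bases before to 50 after the start) also occurred in a promoter elsewhere. This compares with 3 of 42 such regions (7.14%) in the next 569 and 36 of 636 (5.66%) among all autosomal distal regions, members included. Of the 25748 autosomal RefSeq genes it was 3.62%. Counting overlapping members once, as 5 of the 18 are versions of one locus with the start of Gm52720, it was 14 of 83 loci (16.9%). The other sets were not counted by locus. The promoters of 4 members are printed from RefSeq, build GRCm38.p6, 5′ to 3′ on the gene's strand, with capitals for every base inside a 31-base stretch shared with another promoter at least 1 kb away. Gm21083 and Gm21190, at chr5:15577043-15577342 on the plus strand and chr5:15529173-15529472 on the minus strand, are shown because they stand for the repeated loci, and Msantd4, at chr9:4376302-4376601 on the plus strand, and Zfp78, at chr7:6363058-6363357 on the plus strand, because they lie in the members of highest level whose promoter shares no such stretch.
Gm21083: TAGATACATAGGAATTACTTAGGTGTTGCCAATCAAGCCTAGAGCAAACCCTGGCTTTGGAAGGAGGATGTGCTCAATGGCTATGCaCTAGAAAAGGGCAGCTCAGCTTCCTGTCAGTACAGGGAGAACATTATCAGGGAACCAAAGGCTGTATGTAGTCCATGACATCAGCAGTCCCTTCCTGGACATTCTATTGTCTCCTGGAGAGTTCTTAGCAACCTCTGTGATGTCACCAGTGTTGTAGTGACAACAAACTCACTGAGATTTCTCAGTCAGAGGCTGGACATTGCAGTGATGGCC
Gm21190: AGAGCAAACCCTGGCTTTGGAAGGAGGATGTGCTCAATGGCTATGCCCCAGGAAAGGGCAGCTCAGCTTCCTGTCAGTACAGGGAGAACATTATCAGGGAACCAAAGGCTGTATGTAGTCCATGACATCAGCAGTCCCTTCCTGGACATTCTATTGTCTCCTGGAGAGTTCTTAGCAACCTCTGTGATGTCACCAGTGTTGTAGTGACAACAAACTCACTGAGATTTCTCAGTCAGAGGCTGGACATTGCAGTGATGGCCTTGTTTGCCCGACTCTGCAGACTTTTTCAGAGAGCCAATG
Msantd4: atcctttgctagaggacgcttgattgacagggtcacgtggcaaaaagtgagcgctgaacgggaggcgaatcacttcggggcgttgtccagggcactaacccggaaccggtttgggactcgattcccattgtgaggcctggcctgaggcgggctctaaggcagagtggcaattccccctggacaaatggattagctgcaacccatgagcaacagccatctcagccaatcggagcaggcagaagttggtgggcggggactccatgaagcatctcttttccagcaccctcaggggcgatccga
Zfp78: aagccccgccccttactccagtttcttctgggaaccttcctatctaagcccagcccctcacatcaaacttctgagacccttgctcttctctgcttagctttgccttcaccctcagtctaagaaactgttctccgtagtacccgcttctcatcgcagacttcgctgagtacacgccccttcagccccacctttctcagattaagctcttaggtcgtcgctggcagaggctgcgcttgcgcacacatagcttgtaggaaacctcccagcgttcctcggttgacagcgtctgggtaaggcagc
The promoters of Gm21083 and Gm21190 were identical at 257 of 260 aligned bases (98.8%), and each shared a 31-base stretch with promoters at 23 other loci. The pair held 0 and 1 CG dinucleotides, and the promoters of Msantd4 and Zfp78 held 15 and 13. The mean level of the members around them was 132 CPM for Gm21083, 77.8 CPM for Gm21190, 179 CPM for Msantd4 and 177 CPM for Zfp78.

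Among the 83 distinct promoters inside members (1 per member with a start, repeats counted once), searched on both strands, the letters CCGCCC (the KLF motif) occurred in 37 (44.6%), against 36.0% of 31396 autosomal RefSeq promoters of the same length. The letters TGACAG (Meis) occurred in 24 (28.9%) against 19.0%, and CCGGAAG (ETS) in 12 of 83 against 9.0%. The letters TTTATNG (Hox) occurred in 2 (2.41%) against 10.9%, and TGATAC (the motif of Six2) in 2 (2.41%) against 5.42%. A match is a description of the letters and not a measured binding site.

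The members' mean levels ran from 47.8 to 619 CPM with a median of 62.2 CPM. They were 445 to 6020 bases long, with a median of 1985, against 1480 for all autosomal distal regions. At the limit, the last members inside were chr1:9563312-9565923 at 47.79 CPM and chr11:11843975-11845347 at 47.76 CPM, and the first outside were chr2:61655069-61658230 at 47.75 CPM and chr6:63963469-63965858 at 47.69 CPM. Ranked by CPM per kb, 332 of the 569 would also have been chosen. As the table lists overlapping versions of a few regions, 37 members overlapped another, and joining overlaps left 547 separate loci.

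**Figure D1:**
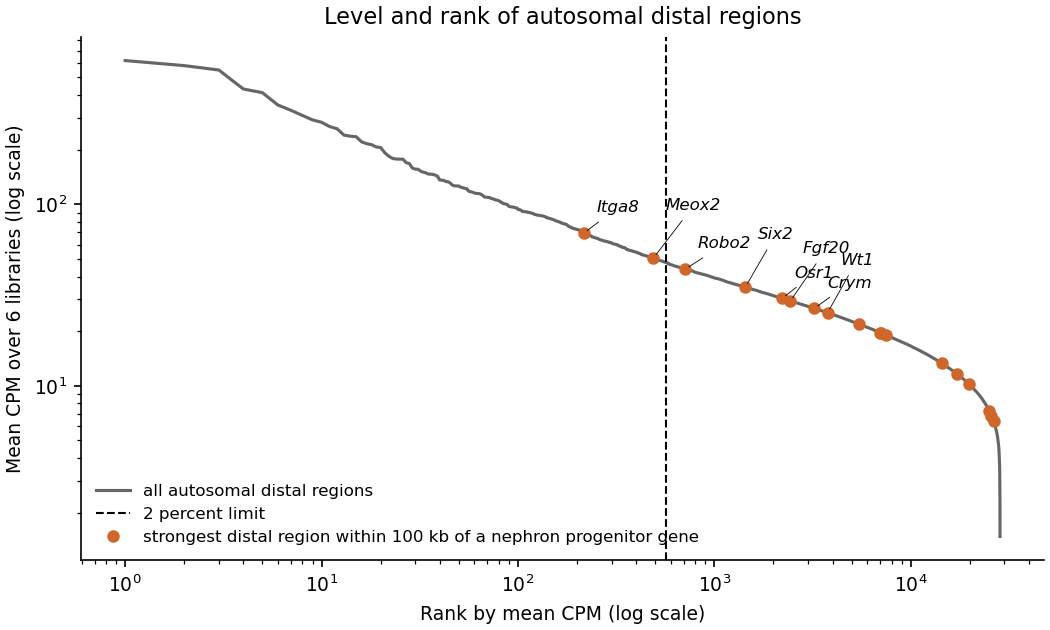
Mean CPM over the 6 libraries (vertical axis, log scale) against rank (horizontal axis, log scale) for the 28472 autosomal distal regions. The dashed line is the 2% limit that defines the 569 members, and the orange points mark the strongest distal region within 100 kb of each nephron progenitor gene that had one. Those of Itga8 and Meox2 lie inside the limit, and that of Six2 lies at 35.0 CPM, outside it.

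The region with the highest level, chr15:75085507-75087040, was intergenic and 21.1 kb from Ly6c2, which encodes a surface protein of monocytes. Its levels were 791, 246 and 672 CPM in E14.5 replicates 1 to 3 and 511, 1109 and 386 CPM in P0 replicates 1 to 3. The stages overlapped, with P0 replicate 2 highest and E14.5 replicate 2 lowest. The second, chr14:124801563-124802238, lay 124 kb from Fgf14, a gene of the fibroblast growth factor family, and had 889, 376 and 448 CPM at E14.5 and 519.8, 885 and 367 CPM at P0. The third, chr4:3089513-3091456, lay 80.6 kb from the vomeronasal receptor gene Vmn1r2 and had 623, 372 and 621 CPM at E14.5 and 494, 824 and 362 CPM at P0. In both, replicate 2 was high at P0 and low at E14.5, so the stages overlapped widely.

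The other 5 of the first 8 were in Mdga2 outside its exons (432 CPM), near 4930467E23Rik (412 CPM), in Tcte2 by the table's annotation (352 CPM), near Gm39469 (329 CPM) and near Vmn1r238 (308 CPM). The Tcte2 gene of RefSeq lies 163 kb from the region annotated to it, chr17:13550706-13553173. Its levels were 326, 433 and 543 CPM at E14.5 and 261, 346 and 204 CPM at P0. It had the lowest adjusted p between the stages of the 8, at 0.13 by edgeR's quasi-likelihood test (log2 fold change -0.72, SE 0.256), which does not pass the threshold of 0.05. Together these 8 regions held 7.88% of the members' summed mean CPM.

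Most members were intergenic by the table's annotation: 419 (73.6%), against 65.4% of the next 569 and 57.3% of all autosomal distal regions. By RefSeq, some of these are not outside genes. They include the members that hold the starts of Msantd4, Zfp78 and Zfp317, and others that overlap the spans of Klf12 and Utrn. A further 101 lay in a gene outside its exons and 49 overlapped an exon. Of the members, 105 (18.5%) overlapped a FANTOM enhancer, a region defined by enhancer RNA, which is close to the 18.6% of the next 569 and above the 8.77% of all autosomal distal regions. VISTA elements, which have been tested for enhancer activity in transgenic embryos, overlapped 14 members (2.46%), against 2.28% and 0.878%. For EnhancerAtlas, a further enhancer list, the sets differed little, with 45.3% of members, 43.9% of the next 569 and 43.3% of all autosomal distal regions. Its kidney entries were listed for 15.6%, 13.2% and 13.9%. The VISTA-overlapping members included chr13:84347706-84349744 near Tmem161b (104 CPM), a pair near Efcab1 (86.5 and 72.7 CPM) and chr12:85454812-85455982, 17.9 kb from Fos (48.0 CPM).

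By the motif matches listed in the table, Maz, a zinc-finger factor of GC-rich sequence, was named for 140 members (24.6%), against 19.0% of the next 569 and 13.3% of all autosomal distal regions. Six2, the factor that keeps nephron progenitors undifferentiated, was named for 17 members (2.99%), against 4.92% and 3.21%. AP-1 and Bach factors were named for 3.16% of members, 5.62% of the next 569 and 5.16% of all. Forkhead factors were named for 23.6% of members, near the 23.9% of all. The lists of motifs in the table rest on letters and not on binding measured in these cells.

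**Figure D2:**
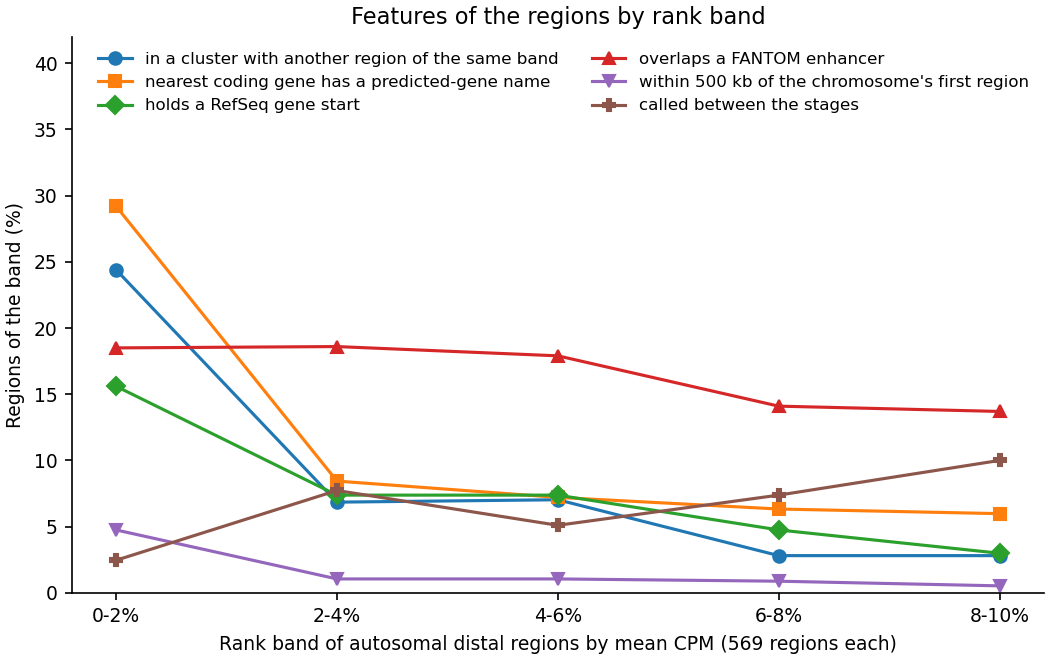
Share of regions with each feature (vertical axis, percent) in 5 successive rank bands of 569 autosomal distal regions (horizontal axis, rank by mean CPM). The members, at the left, have the highest share in clusters (24.4%), near predicted genes (29.2%), with a RefSeq start (15.6%) and near the chromosome's first region (4.75%), and the lowest share called between the stages (2.46%).

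Part of the members lay close together. Neighbouring members were joined into a cluster where the gap between them was small (the widest gap joined was 12347 bases, the narrowest not joined 13204 bases). In this way 139 members (24.4%) fell into 42 clusters, the largest of 11, whereas 39 of the next 569 regions (6.85%) fell into 19 clusters, the largest of 3. The following bands of 569 had 40, 16 and 16 regions in clusters. Some of these clusters are overlapping versions of one locus: with overlaps merged first, 109 of 547 member loci (19.9%) fell into 34 clusters, the largest of 10, and 8 of 553 loci of the next band (1.45%) into 4. Of the members, 27 (4.75%) lay within 500 kb of the first listed region of their chromosome, against 1.05% of the next 569.

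With gaps of up to 500 kb, the 2 largest groups held 89 of the 569 members, at 45 and 37 separate loci, so their summed levels count a few reads more than once. The first, chr8:19702756-21012828, spanned 1310 kb with 47 members and held the defensin genes Defa21 and Defb33, which encode antimicrobial peptides, beside predicted genes such as 9530057J20Rik and Gm15319. Its members summed to 4934, 3455 and 5063 CPM in the E14.5 libraries and 4395, 5767 and 3053 CPM in the P0 libraries. The stages overlapped, 18 of 47 members had a positive log2 fold change (P0 over E14.5), and their median was -0.05. The group made up 9.78% of the members' summed mean CPM, and 72 distal regions of the table lay in its span.

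The second, chr5:14933388-15712512, spanned 779 kb with 42 members around Speer4c, Speer4d and Speer4e, genes of a glutamate-rich family expressed in the testis, and the predicted genes Gm10354, Gm17019, Gm21083, Gm21149 and Gm21190, of which 2 promoters are printed above. Its summed levels were 3479, 2468 and 3301 CPM at E14.5 and 4234, 4621 and 2267 CPM at P0. P0 replicates 1 and 2 were above all E14.5 libraries, but P0 replicate 3 was the lowest of the 6. All 42 members had a positive fitted log2 fold change, from 0.01 to 0.59, and 0 of them passed the test, against 4.73% of all regions. Neighbouring members share their library order, so 42 positive values are not 42 independent observations.

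The cluster with the most members, chr5:14933388-15008719, lay in this group and held 11 members (10 separate loci) of 58.1 to 116 CPM within 75.3 kb. Its summed levels were 958, 659 and 919 CPM at E14.5 and 1165, 1308 and 631 CPM at P0. On chromosome 6, 7 members at 5 separate loci lay in chr6:47738879-47764538 near Gm40363, so the summed levels count some reads more than once, with 711, 579 and 678 CPM at E14.5 and 709, 873 and 651 CPM at P0. On chromosome 8, 7 members, all separate loci, lay in chr8:20588063-20621424 near Gm21119, with mean levels from 51.7 to 126 CPM. In all 3 clusters, 0 members passed the test, against 4.73% of all regions, and so few members cannot show a lower share.

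Other groups differed in their library pattern. On chromosome 13, 7 members in chr13:74462302-74771035 near Zfp825, a zinc-finger gene, summed to 732, 805 and 952 CPM at E14.5 and 653, 615 and 602 CPM at P0. All 3 P0 libraries were below all E14.5 libraries and 0 of 7 members had a positive log2 fold change, but 0 passed the test, against 4.73% of all regions. On chromosome 2, 5 members in chr2:77974428-78027514 near Cwc22, which encodes a splicing factor, summed to 519, 384 and 301 CPM at E14.5 and 694, 445 and 90.5 CPM at P0. There P0 replicate 3 was low in each of the 5 members, at 20.9 CPM or less, while the other 5 libraries ranged from 47.7 to 161 CPM.

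**Figure D3:**
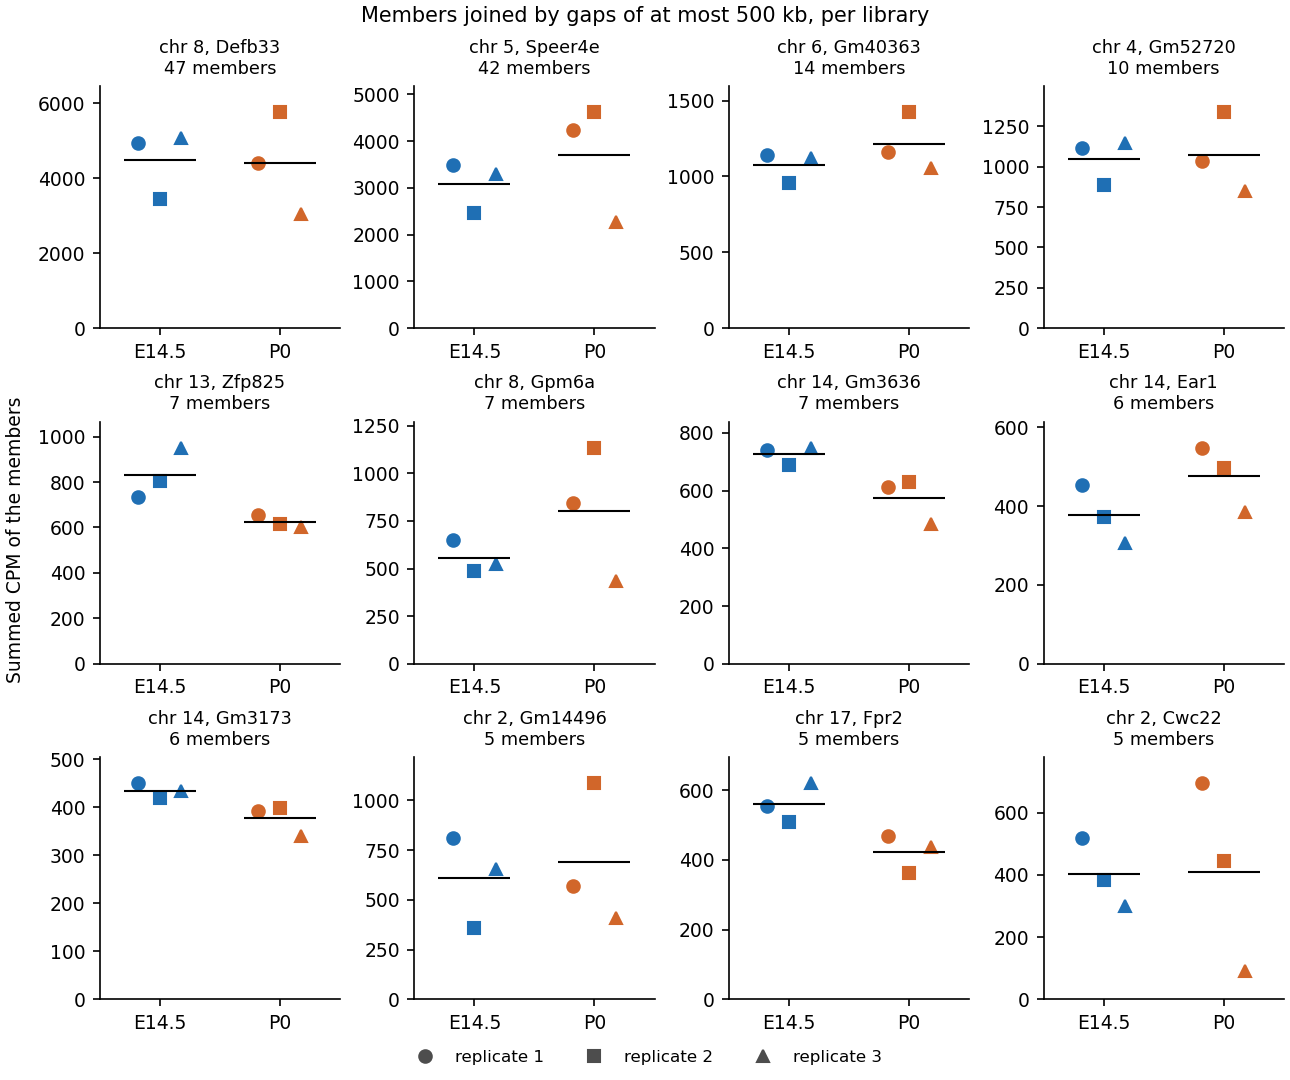
Summed CPM of the members in the 12 groups of at least 5 members joined by gaps of at most 500 kb (vertical axes, each from 0), for the 3 E14.5 libraries (blue) and the 3 P0 libraries (orange). Marker shapes give the replicate number and bars the mean of a stage. P0 replicate 2 (orange square) is highest in 6 of the 12 groups, and P0 replicate 3 is far below the other libraries near Cwc22 (90.5 CPM).

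Single libraries also stood far from the rest in members outside these groups. At chr17:4626009-4626677, an intergenic region 368 kb from Arid1b, a chromatin remodelling gene, levels were 79.0, 6.09 and 7.22 CPM at E14.5 and 438, 12.1 and 1.96 CPM at P0. P0 replicate 1 was thus 224 times P0 replicate 3, and the stage difference did not pass the test (adjusted p = 0.35 by edgeR). At chr7:38199662-38201361, 2.09 kb from 1600014C10Rik, E14.5 replicate 3 had 171 CPM and P0 replicate 1 had 14.19 CPM, and the other 4 libraries had 64.5 to 85.7 CPM. In 17 members (2.99%) the highest library was over 4 times the lowest, against 0.879% of the next 569 and 4.61% of all autosomal distal regions. The median coefficient of variation within a stage was 0.193 for members, 0.169 for the next 569 and 0.198 for all autosomal distal regions.

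Libraries held from 6492996 to 12292629 counts in regions, and a member had between 22 and 6601 counts in any one library. The members took 4.64%, 4.08% and 4.61% of the counts in E14.5 replicates 1 to 3 and 4.80%, 5.24% and 3.90% in P0 replicates 1 to 3. For the highest share, the 95% Wilson interval was 5.23% to 5.26%, and for the lowest 3.89% to 3.91%, which cover counting error only. The stages overlapped (mean ± SD of 3 libraries, 4.44% ± 0.312 before and 4.65% ± 0.683 after birth) and an exact two-sided permutation test of their difference gave p = 0.7, where 0.1 is the smallest possible. The 10 regions left out took 16.7%, 9.65%, 14.1%, 11.5%, 14.9% and 8.79% of all counts in the same libraries, so they too were low in E14.5 replicate 2 and P0 replicate 3. More members had their highest level in P0 replicate 2 (182) and their lowest in P0 replicate 3 (173) than in any other library. The part of this difference between libraries in the results was not tested.

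Between E14.5 and P0, few members changed. By edgeR's quasi-likelihood test with Benjamini-Hochberg adjustment over all 43523 regions, 14 of 569 members (2.46%) passed an adjusted p of 0.05, 8 higher and 6 lower at P0, against 4.73% of all regions, 6.66% of autosomal distal regions and 7.73% of the next 569. The difference between these shares was not tested. Of all regions, 1.79% were called higher and 2.94% lower at P0. The libraries of the stages did not overlap in 109 members (19.2%), 56 higher and 53 lower, against 24.2% of all regions (12.9% higher and 11.3% lower). The median log2 fold change of the members was 0.04, against 0.01 for all regions and 0.09 for autosomal distal regions, and 313 members had a positive value. Scaled on autosomal distal regions alone, the members' median was -0.08, so its sign depends on the scaling. At an unadjusted p under 0.05 there were 94 members (16.5%), against 18.7% of all regions. The p-values rest on the spread between libraries of a stage, with the estimate for each region drawn toward that of other regions. As each litter gave a single library, differences between litters and between preparations cannot be told apart.

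The count of called members depended on single libraries, as did that over all regions. Without E14.5 replicate 3, or without P0 replicate 1, 0 members were called by edgeR, with 33 and 42 at an unadjusted p under 0.05, and the share called over all regions was 0.779% and 1.09%. Without E14.5 replicate 1, 6 members were called (1.05%, against 2.53% of all regions), and without P0 replicate 3, 20 (3.51% against 5.16%). Without E14.5 replicate 2, 46 were called (8.08% against 6.86%), and without P0 replicate 2, 26 (4.57% against 3.80%), so in these fits the members' share was above that of all regions. DESeq2, run on all 6 libraries, called 31 members (5.45% against 6.38%), 20 of them higher at P0.

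The 14 called members were all outside clusters, and none held a start listed in the RefSeq promoters used, which have none on chromosome 18, where 1 of the called and 14 of all members lay. The 356 members of that kind had 193 positive log2 fold changes and a median of 0.03. The 89 members with a RefSeq start had 26 positive values, a median of -0.16 and 21 members without overlap that were lower at P0 against 6 higher (30.3% without overlap, against 24.2% of all regions), and 0 were called. The 124 clustered members without a start had 94 positive values and a median of 0.14. Among them too 0 were called, against 4.73% of all regions. The libraries of the stages did not overlap in 5 of these 124 (4.03%), all higher at P0.

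**Figure D4:**
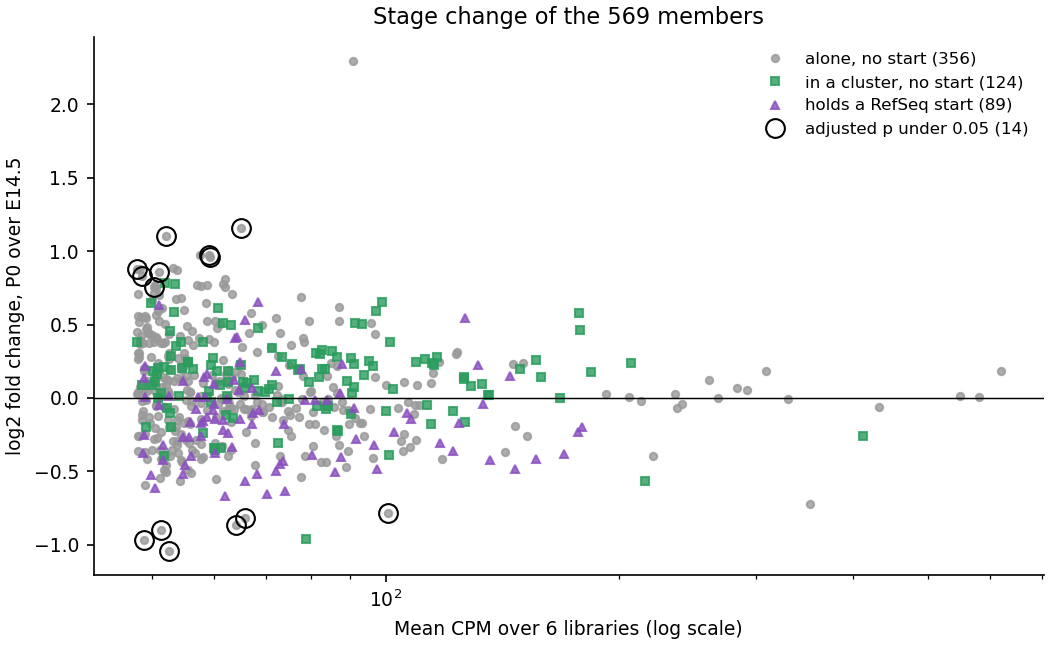
log2 fold change of P0 over E14.5 from edgeR (vertical axis) against mean CPM over the 6 libraries (horizontal axis, log scale) for the 569 members, by kind. The 14 circled members passed an adjusted p of 0.05, all of them alone and without a listed RefSeq start (not assessed for the 1 on chromosome 18), and the point above 2 is the region 368 kb from Arid1b, which did not pass.

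Among the 8 members called higher at P0, the change was largest at chr12:15698157-15699618, an intergenic region 92.1 kb from Trib2, which encodes a pseudokinase. Its levels were 30.2, 52.9 and 36.4 CPM at E14.5 and 110, 77.3 and 84.0 CPM at P0, so all P0 libraries were above all E14.5 libraries. The means were 39.8 ± 11.8 and 90.5 ± 17.4 CPM (SD, n = 3 each), and the log2 fold change was 1.16 (SE 0.239, adjusted p = 0.0133 by edgeR). At chr18:88746743-88747565, annotated by the table to Socs6, a suppressor of cytokine signalling (118 kb from its RefSeq span), levels rose from 33.0, 38.9 and 26.0 CPM to 90.6, 65.9 and 58.1 CPM, without overlap (log2 fold change 1.10, SE 0.226, adjusted p = 0.0126 by edgeR).

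At chr8:62284121-62285134, 161 kb from the annexin gene Anxa10, levels were 46.9, 40.8 and 30.7 CPM at E14.5 and 82.6, 81.1 and 73.1 CPM at P0, a log2 fold change of 0.97 (adjusted p = 0.0147 by edgeR). At chr1:17655642-17656172, 24.7 kb from Pi15, a peptidase inhibitor gene, they were 32.3, 52.1 and 34.7 CPM against 93.0, 75.9 and 68.0 CPM, a log2 fold change of 0.96 (adjusted p = 0.0244 by edgeR). Neither region overlapped between the stages. At chr10:17655738-17657430, 65.8 kb from Cited2, a transcriptional co-regulator that binds CBP and p300, they were 27.4, 44.5 and 28.0 CPM against 72.3, 56.9 and 57.9 CPM (log2 fold change 0.88, adjusted p = 0.0382 by edgeR). The region at chr1:88259007-88260866 overlaps an exon of Heatr7b1 by the table and the span of Hjurp, the chaperone of the centromeric histone, and had 35.4, 33.8 and 38.1 CPM at E14.5 and 75.2, 71.9 and 52.0 CPM at P0 (log2 fold change 0.86, adjusted p = 0.0236 by edgeR, and 0.0512 with autosomal distal regions alone). The stages were separate in both. The other members called higher lay near Fhit (chr14:9189754-9193315, log2 fold change 0.83) and in Cubn, the endocytic receptor cubilin of the proximal tubule (chr2:13398081-13399919, log2 fold change 0.76, adjusted p = 0.045 by edgeR, and 0.0733 with autosomal distal regions alone).

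Among the 6 members called lower at P0, chr6:132794744-132796597 had the largest change. It lay 6.30 kb from Tas2r117, in a cluster of bitter taste receptor genes, and fell from 57.8, 73.1 and 80.1 CPM at E14.5 to 35.3, 31.7 and 37.3 CPM at P0. The means were 70.3 ± 11.4 and 34.8 ± 2.84 CPM (SD, n = 3 each), and the log2 fold change was -1.04 (SE 0.202, adjusted p = 0.00981 by edgeR), the only member past an adjusted p of 0.01. At chr16:71850528-71853429, 174 kb from Robo1, which encodes a receptor for Slit proteins, levels were 55.0, 66.5 and 71.2 CPM against 30.64, 30.96 and 38.53 CPM (log2 fold change -0.97, adjusted p = 0.0136 by edgeR). Both were lower in every P0 library than in any E14.5 library.

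At chr4:74612370-74614342, 207 kb from the histone demethylase gene Kdm4c, the P0 libraries were close to each other at 35.8, 36.0 and 36.8 CPM, below 55.0, 75.6 and 68.5 CPM at E14.5 (log2 fold change -0.90, adjusted p = 0.0167 by edgeR). At chr9:94238592-94240530, 277 kb from Dipk2a, levels were 70.3, 82.3 and 93.9 CPM at E14.5 and 42.9, 48.2 and 46.9 CPM at P0 (log2 fold change -0.87, adjusted p = 0.021 by edgeR). Neither region overlapped between the stages. At chr14:6425846-6428075, 224 bases from Lamtor3-ps and among predicted genes, levels were 118, 114 and 146 CPM at E14.5 and 78.7, 83.1 and 62.9 CPM at P0 (log2 fold change -0.79, adjusted p = 0.0418 by edgeR). Leaving out E14.5 replicate 3 or P0 replicate 1 raised the adjusted p of each of the 11 called regions given here with levels above 0.05, and the highest value over the alternatives ran from 0.0893 near Tas2r117 to 0.275 near Lamtor3-ps. Calls were also lost without E14.5 replicate 1 near Trib2, Socs6, Pi15, Cited2, Hjurp and Lamtor3-ps, without E14.5 replicate 2 near Hjurp and Lamtor3-ps, and without P0 replicate 3 near Lamtor3-ps. Without E14.5 replicate 3 or P0 replicate 1, the log2 fold changes of the 11 kept their sign, at 0.791 to 1.08 times the value over all 6 libraries.

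**Figure D5:**
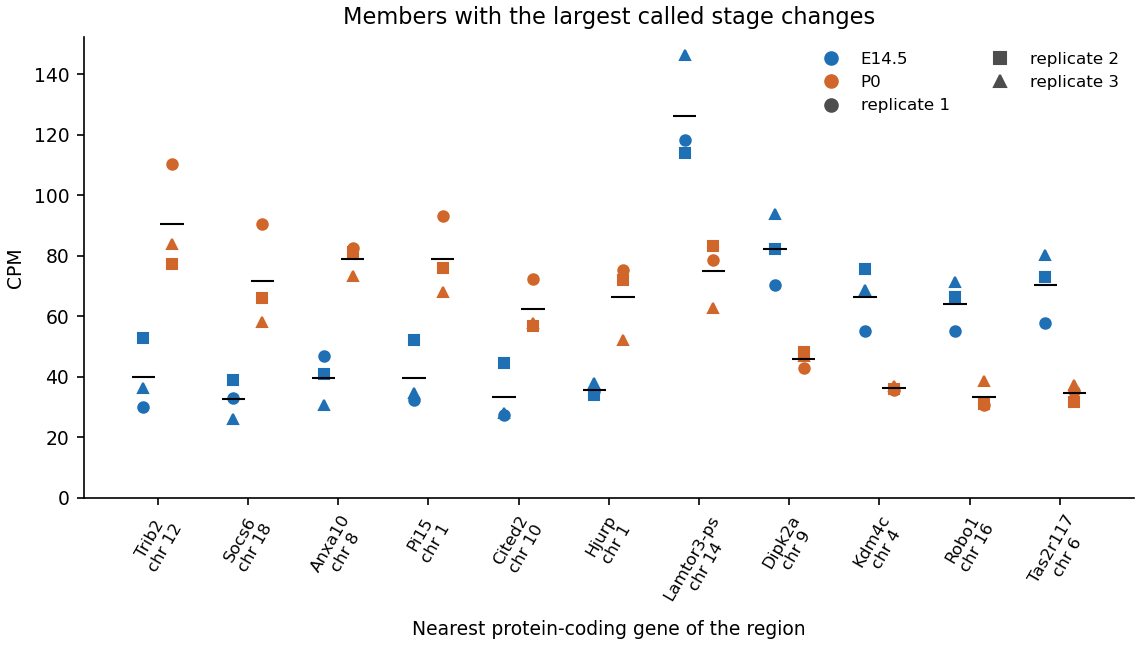
CPM (vertical axis, from 0) of the 6 members with the largest called gains and of 5 members with the largest called losses, named by the nearest protein-coding gene (horizontal axis). Blue marks E14.5 and orange P0, shapes give the replicate and bars the stage mean. In all 11 the libraries of the stages do not overlap.

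Of the nephron progenitor genes, Itga8 and Meox2 had a member within 100 kb (2 of 22 genes, 9.09%), against 857 of 20665 autosomal protein-coding genes (4.15%). The member 82.2 kb from Itga8, the integrin used to select the cells, was chr2:12023086-12024436, with 47.0, 87.0 and 79.1 CPM at E14.5 and 65.9, 56.9 and 80.2 CPM at P0. The stages overlapped (log2 fold change -0.09, adjusted p = 0.886 by edgeR). Within Meox2, a homeobox gene of the progenitors, chr12:37141997-37142817 had 25.7, 55.9 and 30.3 CPM at E14.5 and 81.79, 49.98 and 59.67 CPM at P0, overlapping between the stages (log2 fold change 0.75, adjusted p = 0.152 by edgeR).

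Of the 22 genes, Cited1 (on the X chromosome), Sall1, Pax2 and Meox1 had 0 autosomal distal regions within 100 kb, and for the rest, other than Itga8 and Meox2, the strongest one ranked below the limit. Near Six2, whose product holds the cells undifferentiated, it had 35.0 CPM (rank 1439), and near Robo2, a Slit receptor gene, 43.9 CPM (rank 711). Near Osr1, an early factor of the kidney lineage, it had 30.3 CPM (rank 2216) and near Wt1, a factor of progenitors and podocytes, 25.3 CPM (rank 3775). Near Eya1, a cofactor of Six2 and its relatives, it had 21.8 CPM and was lower at P0 (log2 fold change -0.88, adjusted p = 0.0287 by edgeR).

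Genes of the early nephron had members at Jag1 and Cdh6 (2 of 17). In Jag1, a Notch ligand gene, chr2:137113641-137115264 had 47.2, 50.8 and 42.8 CPM at E14.5 and 65.3, 59.6 and 71.9 CPM at P0. Every P0 library was above every E14.5 library, but the change did not pass the test (log2 fold change 0.46, adjusted p = 0.205 by edgeR). In Cdh6, a cadherin of the forming tubule, the stronger of 2 members had a mean of 49.4 CPM (log2 fold change 0.45, adjusted p = 0.296 by edgeR).

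Of the lists for other cells of the kidney, 4 of 10 endothelial genes had a member within 100 kb (Tek, Emcn, Sox17 and Tie1), as did 1 of 10 genes of the ureteric epithelium (Wnt7b) and 0 of 8 podocyte, 0 of 12 stromal, 0 of 7 immune, 0 of 5 neural and 0 of 3 erythroid genes. The member 73.8 kb from Sox17, a transcription factor gene of endothelium, was chr1:4571207-4572676, with 77.7, 96.8 and 85.5 CPM at E14.5 and 86.3, 82.8 and 85.4 CPM at P0. In Tek, the gene of an angiopoietin receptor, chr4:94751799-94753148 had 49.9, 62.7 and 64.1 CPM at E14.5 and 52.2, 40.7 and 53.7 CPM at P0. Both overlapped between the stages. The member near Tie1, chr4:118547063-118548849 (145 CPM), lay nearest to Tmem125, held the start of Gm40237 and had 6 coding genes within 100 kb. The member near Emcn, a sialomucin gene of endothelium, chr3:137287803-137290460 (51.0 CPM), held the start of Gm567. The member near Wnt7b, chr15:85634254-85635438 (50.4 CPM), held the start of D130051D11Rik. Whether endothelial cells were among the selected cells was not tested.

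Of 12 genes of signalling feedback and ligands, Axin2, a feedback inhibitor of Wnt signalling, had a member within 100 kb, chr11:109011640-109012122, 60.9 kb away. Its levels were 302, 164 and 274 CPM at E14.5 and 298, 324 and 203 CPM at P0, and the stages overlapped (adjusted p = 0.859 by edgeR). Of 12 genes of factors known from open distal chromatin, Nfia and Fos had one. The member 99.6 kb from Nfia, a nuclear factor I gene, had 88.9, 93.4 and 83.9 CPM at E14.5 and 77.7, 58.1 and 70.4 CPM at P0, lower in every P0 library but not past the test (log2 fold change -0.39, adjusted p = 0.316 by edgeR). The 7 genes of developmental timing, such as Lin28b and Hmga2, had 0 members nearby, and the strongest distal region near Mycn reached 37.8 CPM.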

How the data were processed

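ATAC-seq counts in 6 libraries, 3 at E14.5 and 3 at P0, were analysed. The deposited table gave whole-number counts per region for a shared region set, on mm10 per the submitters' processing notes. The aligner, peak caller, counting rule, duplicate removal, treatment of reads that map to several places and Tn5 shift are not given in the sources used here. The log2, score and p-value columns of the authors' own comparison, per the file headers, were not used. Of 45489 rows, 1966 repeated a region and were dropped. Members and gene lists were chosen with earlier results of these data known.

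Stage differences were fitted in edgeR 4.0.16 (R 4.3.3; TMM scaling; filterByExpr, which removed 0 regions; quasi-likelihood test of stage, no other term; standard error from the F statistic), adjusted by Benjamini-Hochberg over 43523 regions; the fit was tested on simulated data. Alternatives were DESeq2 1.42.0, other scalings and filters, and left-out libraries. CPM used no TMM. Nearest genes are by distance to RefSeq protein-coding spans (GRCm38.p6), in place of gene starts. Classes, enhancer overlaps and motif names are the table's columns; starts and promoters are RefSeq's, with none on chromosome 18 used. Named regions are the 8 highest, the 6 largest called changes without overlap in each direction (1 of them is not reported here), the 3 largest clusters, the strongest member near listed genes and those at the limit; other groups, the most variable members and those at VISTA elements were chosen after their values were seen.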

Additional observations from a re-analysis of the deposited data

How the results depend on the processing

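The count of called members (14, 8 higher and 6 lower at P0) stayed within 1.5 times under DESeq2's size factors in edgeR, total-count scaling, both count filters, the replicate block, TMM-scaled ranking and autosomal distal regions alone. It was 31 (20 higher, 11 lower) by DESeq2, 1 (0 and 1) at an adjusted p of 0.01 and 27 (19 higher) at 0.1. Other cuts of the ranking gave 4 of 284 (1 and 3) for the top 1% and 72 of 1423 (33 and 39) for the top 5%. Ranked by CPM per kb, it was 25 of 569 (13 and 12). In the same fit 4.73% of all regions were called, so where the share of the strongest regions lies against it depends on the cut and the ranking. Leaving out 1 library at a time gave 0 to 46 called, 0 to 42 higher and 0 to 9 lower, while the share called over all regions ran from 0.779% to 6.86%; the members' share was above it when replicate 2 of either stage was left out. Members with a RefSeq start and those of the 2 largest groups held 0 of the calls, so leaving them out (chosen after seeing the data) could not change the count. The members' median log2 fold change (0.036) was -0.08 with autosomal distal regions alone and -0.048 to 0.11 without 1 library. The share of counts (P0 minus E14.5, 0.205 percentage points) was -0.234 as a share of autosomal distal counts, and -0.0931 to 0.578 without 1 library, with a negative value only without P0 replicate 2. Clusters held 75 members in 27 for the top 1% and 241 in 74 for the top 5%, and 109 loci in 34 with overlaps merged first. Nephron progenitor genes with a member nearby were 1 of 22 within 50 kb, against 2.58% of autosomal protein-coding genes, and 4 within 500 kb, against 13.9%. Counted as the nearest gene of a member, they were 3. The cause of these differences was not tested.

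Same-numbered libraries did not deviate together (correlations 0.0668, -0.14 and 0.0764), so the numbers were not taken as pairs. The replicate block gave 13 called members, 8 higher and 5 lower, and 11 of the 14 were among them; the regions near Cited2 (adjusted p = 0.0563 by edgeR), Lamtor3-ps (0.0741) and Cubn (0.0586) were not. With autosomal distal regions alone, those near Hjurp (0.0512) and Cubn (0.0733) were lost. For the 12 largest called changes, 37 of 156 region and setting pairs lost the call and 0 changed direction.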
